A study of Mus musculus with 9 samples.

Results

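The antioxidant and glutathione genes described here are 10 mouse genes that are commonly counted among the targets of the transcription factor Nrf2 (gene Nfe2l2). They were taken by symbol, by matching the Ensembl identifiers of the deposited count table to gene names, and all 10 were found among the 53465 genes of that table. All 10 also passed the filter on low counts, which left 12610 genes for testing. By role they fall into glutathione supply (Slc7a11, Gclc, Gclm, Gsr), the thioredoxin system (Txn1, Txnrd1, Prdx1, Srxn1) and the supply and use of NADPH (G6pdx, Nqo1). The rule that lists them uses symbols and no measured value, but the list was chosen with earlier results of these data known.

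Nrf2 is held in the cytoplasm and marked for degradation by Keap1, which is an adaptor of a Cul3 and Rbx1 ubiquitin ligase. When electrophiles or oxidants modify Keap1, Nrf2 accumulates, pairs with a small Maf protein and binds antioxidant response elements, from which Bach1 can displace it. Its targets supply cysteine and glutathione, regenerate thioredoxin and peroxiredoxin, and deliver the NADPH on which both reducing systems run. Macrophages make superoxide as part of host defence and are among the cells in which this response has been much studied.

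The 9 mouse samples form 3 groups of 3. The lining group (A to C) holds CD45+CD11b+F4/80+ macrophages positive for green fluorescent protein (GFP), and the interstitial group (D to F) holds macrophages of the same gate without GFP. Both were sorted from the synovium, the joint membrane, of hind paws of healthy Cx3cr1-GFP mice, in which GFP reports the fractalkine receptor gene Cx3cr1. Bone marrow-derived macrophages (BMDM; G, H and I) came from C57BL/6 marrow and were cultured with MCSF-conditioned medium (the macrophage growth factor) over 5 days. Genotype, freshly sorted or cultured state, and tissue therefore change together between the sorted groups and BMDM and cannot be told apart. The labels used here give no sex, no age and no pooling of animals, and do not say whether each sample is a separate animal. The p-values thus measure the spread between these samples, which may be technical.

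Total counts were 2194920 to 11137451 in the sorted libraries and 19427273 to 22499823 in BMDM, so 3 counts, the detection floor used here, are worth 0.273 to 1.45 CPM (counts scaled to a common total in the usual unit of that name) in a sorted library. The 10 pan-macrophage markers had counts in every group. They summed to 24269 to 30926 CPM in lining, 13949 to 23476 CPM in interstitial and 15316 to 19396 CPM in BMDM. Every lining library thus lay above every interstitial and BMDM library, and the part of this difference in the results was not tested. The 8 fibroblast markers summed to 274 to 400 CPM in lining, 200 to 708 CPM in interstitial and 12.5 to 15.5 CPM in BMDM, where Lum was at 0, and 8 and 7 of them were higher than in BMDM. Interstitial D stands apart from the other sorted libraries in having no count of Xist, against 96.0 to 269 CPM in the other 5 and at most 0.130 CPM in BMDM, while Ddx3y from the Y chromosome was found in all 9 (24.2 to 70.3 CPM). Apart from interstitial D, Xist thus changes together with the sorted and cultured groups. The sex makeup of the samples is therefore largely confounded with these groups, and its part in the results was not tested. Results on the 10 genes that change without interstitial D are given with and without it. Dendritic cell markers summed to 3.88 to 40.9 CPM in lining (Xcr1 at 0), 89.3 to 144 CPM in interstitial (Clec9a at 0) and 3.50 to 4.47 CPM in BMDM. B cell markers summed to 66.6 to 96.5, 136 to 379 and 21.4 to 21.9 CPM in the same order, and erythroid markers to 18.1 to 161, 13.5 to 426 and 0.845 to 4.66 CPM. The part of these cells in the results was not tested. In these bulk samples, fewer cells that express a gene and less RNA per cell cannot be told apart.

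In RefSeq promoter windows (GRCm38.p6, 250 bases before to 50 after a transcript start), 8 of the 10 genes had an entry, with 10 windows in all. Gclc and Gsr had none. The windows were searched on both strands for the core letters of the antioxidant response element, TGACNNNGC and TGAGNNNGC. Either form occurs in 27.8% of the 32851 windows of the same length in that table. Of the 10 windows here, 6 held at least 1, and they belong to 6 of the 8 genes. The stretches below show those matches that lie before the start and outside annotated exons, to show where these letters stand in each gene. Capitals mark the core in either orientation and, in Slc7a11, also the amino acid response element TGATGCAA, which is found in 0.895% of windows.
Slc7a11 (chr3:50443633-50443730, minus strand): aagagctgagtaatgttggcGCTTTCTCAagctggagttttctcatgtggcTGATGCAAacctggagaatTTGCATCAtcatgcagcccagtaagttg
Gclm (chr3:122245403-122245451, plus strand): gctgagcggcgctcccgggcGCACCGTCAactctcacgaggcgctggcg
Txnrd1 (chr10:82859094-82859142, plus strand): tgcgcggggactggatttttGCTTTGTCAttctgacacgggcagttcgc
Prdx1 (chr4:116685446-116685494, plus strand): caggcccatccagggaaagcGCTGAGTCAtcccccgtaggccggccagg
Srxn1 (chr2:152105346-152105507, plus strand): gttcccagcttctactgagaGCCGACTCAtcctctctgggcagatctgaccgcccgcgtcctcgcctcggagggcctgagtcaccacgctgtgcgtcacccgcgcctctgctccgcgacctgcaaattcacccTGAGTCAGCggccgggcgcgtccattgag

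Slc7a11 was the only 1 of the 8 genes with TGATGCAA, and it held it in both orientations, 66 and 47 bases before the start, with an antioxidant core 97 bases before it. Txnrd1 has 3 windows in the table, and only the second held a core. Of 9 core matches in all windows of these genes, 2 (in Prdx1 and Srxn1) also spell TGANTCA, the letters bound by the Fos and Jun family. Those letters occur in 7.81% of all windows, a share of windows that is no baseline for core matches. G6pdx held a core 57 bases before its RefSeq start, and the windows of Txn1 and Nqo1 held no match. A match is a string of letters, and no binding was measured.

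The first comparison was between the sorted macrophages and BMDM, and the 10 genes were mostly lower in the sorted cells. Of the 10, 8 were lower in lining and none was higher (adjusted p under 0.05 in edgeR's quasi-likelihood test, as everywhere below), where 20.5% of all genes tested were lower, 23.1% higher and 43.5% either. In interstitial, 9 were lower and none was higher, where 21.3% of all genes were lower, 23.4% higher and 44.8% either. The median log2 fold change of the 10 genes was -1.87 for lining and -1.66 for interstitial, where the medians of all genes were 0.00 and -0.01. Both comparisons use the same BMDM libraries, so their values are given side by side and do not count as separate evidence. Without interstitial D the counts were 10 in lining and 7 in interstitial. Because the list was chosen with earlier results of these data known, the shares of all genes are no independent test of it.

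Summed over the 10 genes, lining A, B and C held 983, 886 and 844 CPM and interstitial D, E and F held 913, 904 and 1115 CPM. BMDM G, H and I held 3105, 2991 and 2979 CPM, above every sorted library. In lining, all 10 genes were lower in each library than in each BMDM library, an arrangement found in 33.9% of all genes. In interstitial this held for 9 genes, all but Slc7a11, against 33.8% of all genes.

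**Figure D1:**
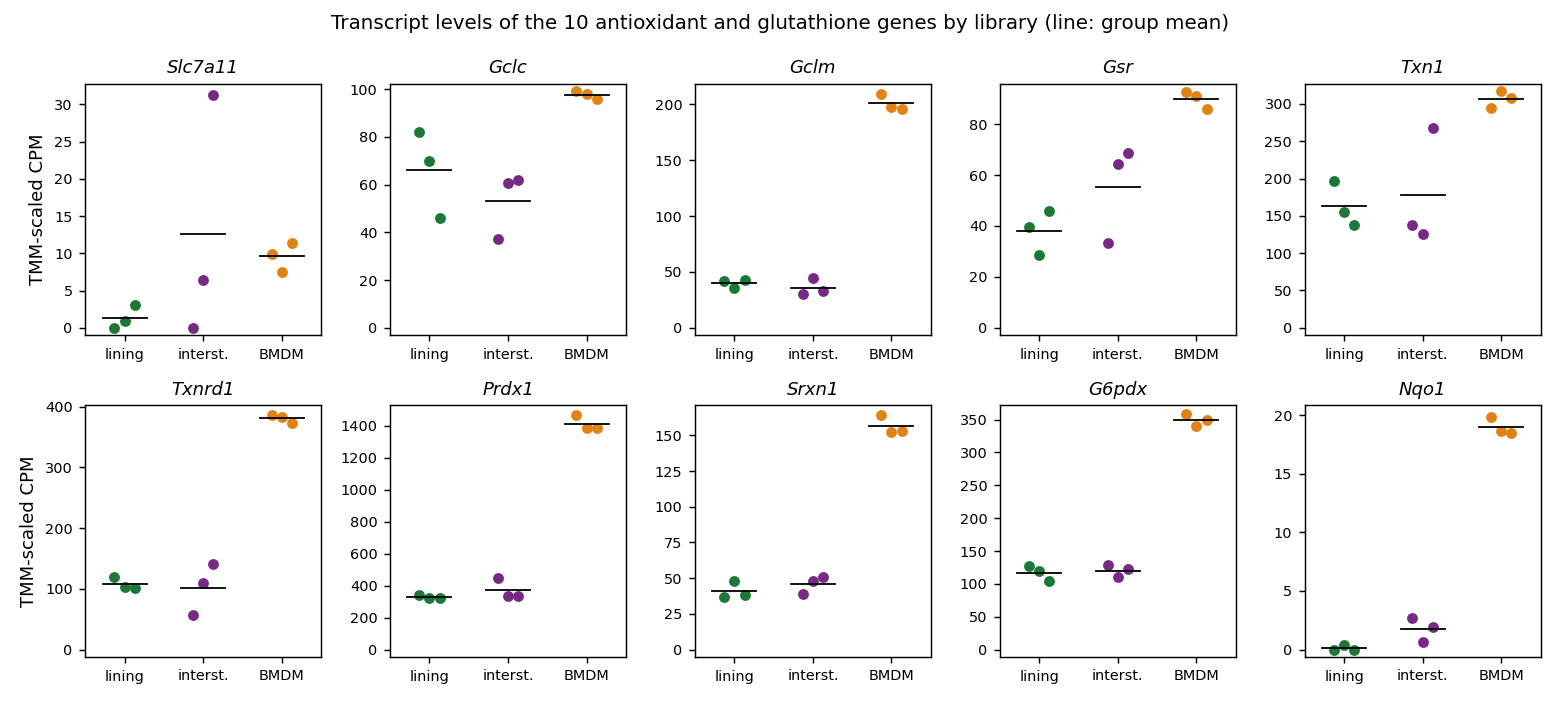
CPM, scaled by the trimmed mean of M values, of each of the 10 genes in the 9 libraries (points; lining A to C, interstitial D to F and BMDM G to I from left to right) with the group means (lines), on axes that start at 0 and differ between genes. The BMDM points lie above all sorted points in 9 panels, and interstitial F lies above them for Slc7a11.

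Slc7a11 encodes xCT, the light chain of the cystine and glutamate exchanger that brings in the cystine from which glutathione is made (ENSMUSG00000027737, chromosome 3, 49892526 to 50443614, minus strand, GRCm38 like all gene coordinates here). It had 0, 0.954 and 3.004 CPM in lining A, B and C and 0, 6.46 and 31.2 CPM in interstitial D, E and F, against 9.86, 7.50 and 11.4 CPM in BMDM G, H and I. The interstitial libraries thus span the whole range of the other groups, with interstitial D at 0 and interstitial F higher than any BMDM library. Lining was lower than BMDM in all libraries, but the log2 difference of -2.89 ± 1.22 (SE, n = 3 per group) did not pass (adjusted p = 0.0800). It passed without interstitial D (adjusted p = 0.0104) and without interstitial F (adjusted p = 0.0287), which are not part of that comparison but share its estimate of the spread. The lining difference also passed with DESeq2 and with only the 2 groups compared. The interstitial difference from BMDM was 0.42 ± 0.99 (adjusted p = 0.762), and -1.34 without interstitial F.

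Gclc and Gclm encode the catalytic and the modifier subunit of glutamate-cysteine ligase, the rate-limiting enzyme of glutathione synthesis. Gclm (ENSMUSG00000028124, chromosome 3, 122245557 to 122270732, plus strand) had 42.2, 35.5 and 42.8 CPM in lining and 30.1, 44.4 and 33.3 CPM in interstitial, against 210, 198 and 196 CPM in BMDM. No sorted library came near a BMDM library. It was 5.04-fold lower in lining (log2 -2.33 ± 0.17, adjusted p = 5.96e-07) and 5.52-fold lower in interstitial (-2.46 ± 0.17, adjusted p = 3.70e-07). Gclm shares exon sequence on its strand with the gene Gm6061, so its counts are uncertain to that extent.

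Gclc, the catalytic subunit (ENSMUSG00000032350, chromosome 9, 77754535 to 77794485, plus strand), showed a smaller difference. Its levels were 82.0, 69.8 and 46.2 CPM in lining, 37.2, 60.7 and 61.8 CPM in interstitial, and 99.2, 97.9 and 96.0 CPM in BMDM. Lining A came closest to BMDM and interstitial D lay farthest below. The log2 difference from BMDM was -0.86 ± 0.23 in interstitial, which passed (adjusted p = 0.00852). In lining it was -0.57 ± 0.23, which did not pass (adjusted p = 0.0601). The lining difference passed without lining A, interstitial D or interstitial F (adjusted p = 0.0294, 0.0152 and 0.0368). It also passed with limma-voom, with no filter, with a filter on mean CPM of at least 1, and with only the 2 groups compared.

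CPM per kilobase of exon adjusts for the length of all exons counted for a gene, which need not be that of the transcripts present. Expressed this way, Gclm stood to Gclc as 0.308, 0.305 and 0.555 in lining A, B and C. In interstitial D, E and F it stood as 0.485, 0.438 and 0.323. In BMDM G, H and I this ratio was 1.26, 1.21 and 1.22. By this measure, and also in CPM, modifier transcript was below catalytic transcript in every sorted library and above it in every BMDM library. This ratio and those of the thioredoxin genes below were chosen after the values were seen, are a description and were not tested.

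Gsr encodes glutathione reductase, which returns oxidised glutathione to its reduced form (ENSMUSG00000031584, chromosome 8, 33652523 to 33698163, plus strand). It had 39.8, 28.6 and 45.8 CPM in lining, 33.2, 64.1 and 68.6 CPM in interstitial, and 92.7, 91.01 and 85.9 CPM in BMDM. Interstitial E and F lay between the lining and BMDM libraries, and interstitial D lay among the lining libraries. It was 2.39-fold lower in lining than in BMDM (log2 -1.26 ± 0.26, adjusted p = 0.00188). The interstitial difference of -0.68 ± 0.25 passed narrowly (adjusted p = 0.0414). The call was lost when interstitial D, interstitial E or any of the 3 BMDM libraries was left out. It was also lost with RLE size factors for scaling and with only the 2 groups compared (adjusted p up to 0.0976 over all these fits).

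The thioredoxin genes differed from BMDM in both sorted groups. Prdx1, the cytosolic peroxidase that removes hydrogen peroxide with electrons from thioredoxin (ENSMUSG00000028691, chromosome 4, 116685544 to 116700822, plus strand), had 340, 325 and 324 CPM in lining and 449, 335 and 337 CPM in interstitial, against 1470, 1384 and 1387 CPM in BMDM. Sorted libraries lay within a narrow band, with interstitial D highest, far below BMDM. Prdx1 was 4.29-fold lower in lining (-2.10 ± 0.14, adjusted p = 3.32e-07) and 3.79-fold lower in interstitial (-1.92 ± 0.14, adjusted p = 6.52e-07).

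Srxn1 encodes sulfiredoxin, which repairs overoxidised peroxiredoxins (ENSMUSG00000032802, chromosome 2, 152105516 to 152111376, plus strand). Its levels were 36.9, 48.0 and 38.3 CPM in lining, 38.6, 47.9 and 50.6 CPM in interstitial, and 165, 152 and 153 CPM in BMDM. The 6 sorted libraries overlapped fully and none reached a level near BMDM. The log2 differences from BMDM were -1.92 ± 0.16 in lining and -1.77 ± 0.16 in interstitial (adjusted p = 2.20e-06 and 3.69e-06).

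Txnrd1, the selenoenzyme that reduces thioredoxin with NADPH (ENSMUSG00000020250, chromosome 10, 82833951 to 82897712, plus strand), had 119, 103 and 101 CPM in lining, 56.3, 109 and 141 CPM in interstitial, and 386, 384 and 373 CPM in BMDM. Interstitial D was the lowest and interstitial F the highest sorted library. The log2 differences were -1.83 ± 0.25 and -1.89 ± 0.25 (adjusted p = 9.62e-05 and 6.97e-05).

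Txn1, thioredoxin itself (ENSMUSG00000028367, chromosome 4, 57943373 to 57956411, minus strand), had 197, 155 and 138 CPM in lining, 138, 126 and 268 CPM in interstitial, and 295, 318 and 309 CPM in BMDM. Interstitial F came close to BMDM, and the other 5 sorted libraries did not. Lining was 1.88-fold lower (-0.91 ± 0.25, adjusted p = 0.0114). Interstitial was 1.73-fold lower (-0.79 ± 0.25, adjusted p = 0.0220), a call that was lost without interstitial D, interstitial E or BMDM H (adjusted p = 0.0570, 0.0856 and 0.0586). The interstitial call was also lost with only the 2 groups compared. A processed copy of this gene, Txn-ps1, is annotated, and how reads that fit several places were treated is not given in the sources used here.

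Within a library, per kilobase of exon, Txnrd1 stood to Txn1 as 0.0895 to 0.109 in lining, 0.0604 to 0.128 in interstitial and 0.179 to 0.194 in BMDM. The BMDM range lay above all 6 sorted libraries. Srxn1 stood to Prdx1 as 0.117 to 0.159, 0.0928 to 0.162 and 0.119 to 0.121, and here the groups overlapped.

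**Figure D2:**
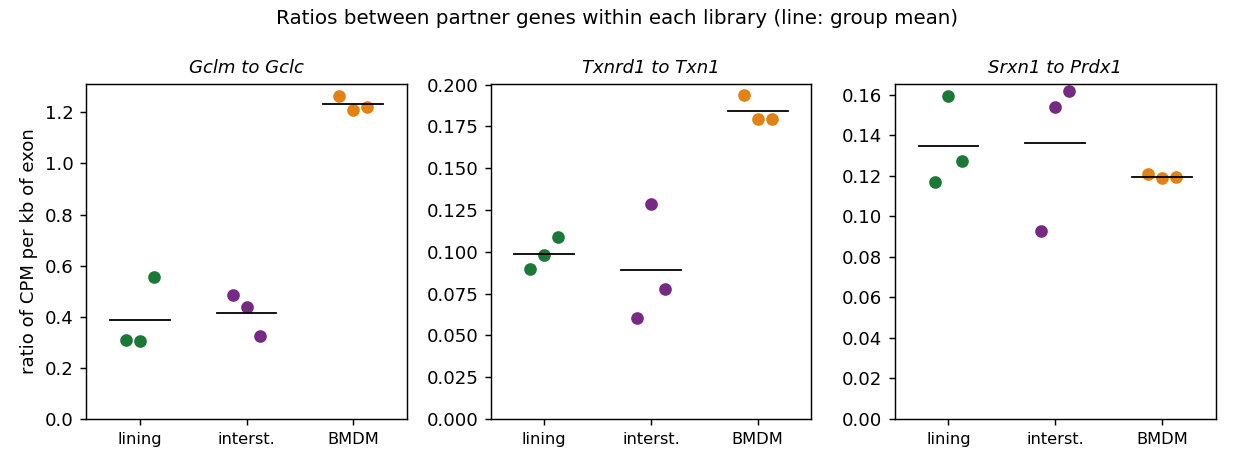
Ratio of CPM per kilobase of exon between 3 pairs of partner genes in each of the 9 libraries (points) with the group means (lines), on axes that start at 0. The Gclm to Gclc ratio is 1.21 to 1.26 in BMDM and at most 0.555 in the sorted libraries, the Txnrd1 to Txn1 ratio is also above all sorted libraries in BMDM, and the Srxn1 to Prdx1 ratio overlaps between groups.

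G6pdx encodes glucose-6-phosphate dehydrogenase, the entry enzyme of the pentose phosphate pathway and a main source of NADPH (ENSMUSG00000031400, chromosome X, 74409483 to 74429194, minus strand). It had 127, 120 and 105 CPM in lining and 128, 110 and 122 CPM in interstitial, against 359, 340 and 349 CPM in BMDM. The sorted libraries overlapped fully and all lay below BMDM. It was 2.99-fold lower in lining (-1.58 ± 0.13, adjusted p = 1.20e-06) and 2.92-fold lower in interstitial (-1.54 ± 0.13, adjusted p = 1.40e-06). The gene is X-linked, and Xist was at most 0.130 CPM in BMDM. Interstitial D, with no Xist count, had 128 CPM of G6pdx, and the sorted libraries with Xist counts had 105 to 127 CPM. The part of sex in the result was not tested.

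Nqo1, a quinone reductase widely used as a readout of Nrf2 activity (ENSMUSG00000003849, chromosome 8, 107388225 to 107403206, minus strand), was nearly absent from the sorted cells. Lining A and C had 0 counts and lining B had 4, or 0.382 CPM. Interstitial D, E and F had 6, 7 and 9 counts, or 2.66, 0.637 and 1.91 CPM. BMDM G, H and I had 19.8, 18.6 and 18.5 CPM, above every sorted library. At their depth, 0 counts in lining A and C allow levels of up to 1.45 and 1.13 CPM, which is above interstitial E, so the order of lining and interstitial could not be placed.

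With 4 counts in lining and 1235 in BMDM, the pooled Nqo1 level was 72.3-fold lower in lining, with a 95% counting interval of 28.2 to 266. Without lining B no lining count remained, and the level was at least 30.0-fold lower, taking 3 counts over the group as the floor. The fitted log2 difference was -6.24 ± 0.76 (adjusted p = 4.26e-05). In interstitial, with 22 counts, the pooled level was 15.5-fold lower and the fitted difference was -3.64 ± 0.60 (adjusted p = 4.25e-04). These reads carry no molecular identifiers, so intervals and floors cover counting error only.

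The second comparison was between lining and interstitial macrophages. None of the 10 genes passed. Of all genes tested 5.79% passed (730 of 12610), with 3.74% higher and 2.05% lower in lining. Unadjusted, 3 of the 10 had p under 0.05, all lower in lining (Slc7a11, Gsr and Nqo1), as had 2436 of the 12610 genes in either direction, and DESeq2 and limma-voom also called 0. The median log2 difference of the 10 genes was -0.14, against -0.01 for all genes.

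By listed value, Nqo1 was lower in each lining library than in each interstitial library, an arrangement held by 8.66% of all genes, but 2 of those lining values are 0 counts whose upper limits overlap interstitial. Its log2 difference was -2.60 ± 0.87 (95% interval -4.49 to -0.71, adjusted p = 0.115). Without lining B, which holds all its lining counts, the fitted value was -7.03 and depends on the prior count. With 3 counts over lining A and C as the floor (0.635 CPM), the pooled interstitial level was 1.93-fold above that floor. Interstitial E alone, at 0.637 CPM, barely exceeded it, so this bound does not place the order of the 2 groups. Slc7a11 differed by -3.30 ± 1.24 (-6.06 to -0.55, adjusted p = 0.175), and by -1.601 without interstitial F, the library that held most of its counts. Gsr differed by -0.58 ± 0.26 (-1.14 to -0.02, adjusted p = 0.243). Without interstitial D, Slc7a11 (-3.87, adjusted p = 0.0229) and Gsr (-0.85, adjusted p = 0.0302) passed as lower in lining, the only 2 of the 10 to do so in any of the alternatives run.

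The other 7 genes had differences of -0.18 to 0.29. For Gclm the difference was 0.13 ± 0.17 (95% interval -0.25 to 0.50), for G6pdx -0.03 ± 0.13 (-0.31 to 0.24) and for Prdx1 -0.18 ± 0.14 (-0.48 to 0.12). For Gclc it was 0.29 ± 0.23 (-0.21 to 0.79), and for Txnrd1 0.06 ± 0.24 (-0.47 to 0.59). Srxn1 gave -0.15 ± 0.17 (-0.51 to 0.21) and Txn1 -0.12 ± 0.25 (-0.67 to 0.42). The intervals leave room for differences of up to about these bounds in either direction, and the signs of Gclm, G6pdx, Txnrd1 and Txn1 changed in at least 1 alternative.

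**Figure D3:**
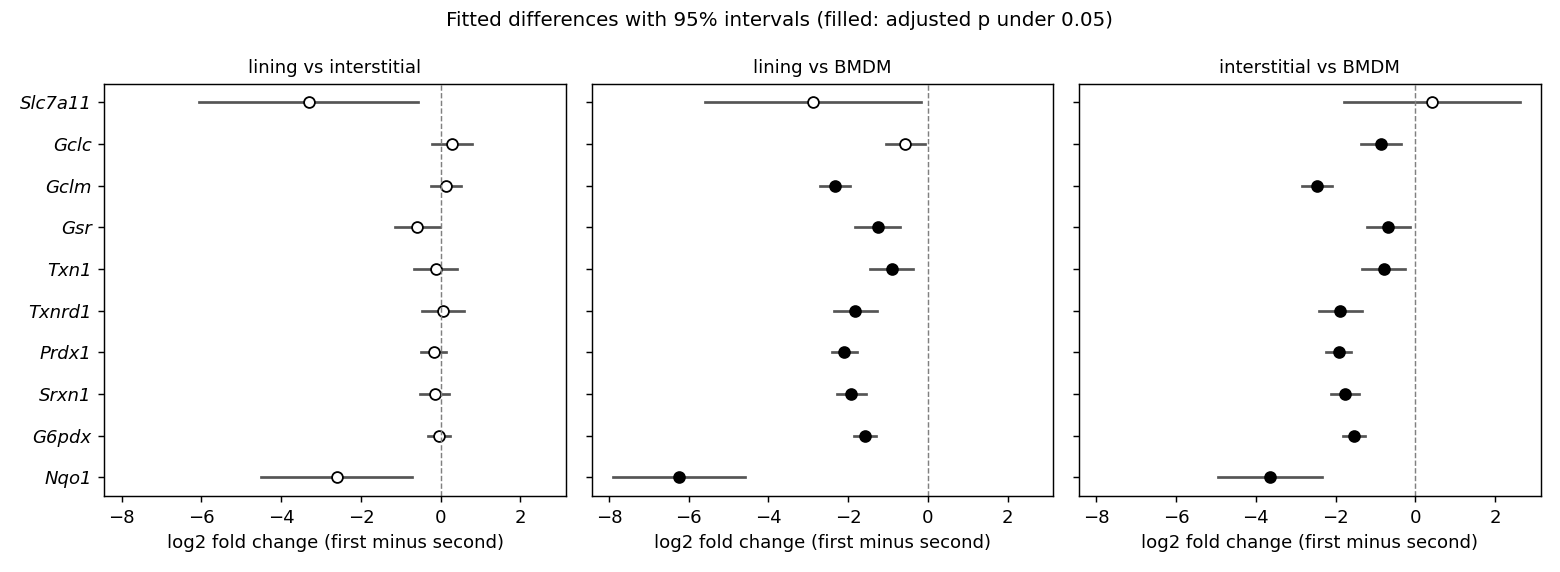
Fitted log2 fold changes (points) with 95% intervals (lines) for the 10 genes in the 3 comparisons, the second group subtracted from the first, with filled points at an adjusted p under 0.05. There is no filled point between lining and interstitial, 8 to the left of 0 between lining and BMDM, and 9 between interstitial and BMDM.

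Levels among the 10 genes were ordered by CPM per kilobase of exon, where the length is that of all exons counted for a gene. That length was 3043 bases for Prdx1 and 1051 for Txn1. In CPM, Prdx1 lay above Txn1 in lining (330 against 163) and in interstitial (373 against 178). The order of these 2 genes in the sorted groups thus depends on the length used. In lining, Txn1 led at 155, followed by Prdx1 at 108, G6pdx at 38.0 and then Gclc, Txnrd1, Srxn1 and Gsr between 13.8 and 17.5, whose libraries overlapped from each gene to the next. Gclm followed at 6.38, and Slc7a11 and Nqo1 came last at 0.0948 and 0.0819, overlapping each other. In interstitial the order had Txn1 and Prdx1 overlapping at the top (169 and 123), G6pdx at 39.0, Gsr, Srxn1, Txnrd1 and Gclc at 14.1 to 20.1 with overlapping neighbours, Gclm at 5.72, and Nqo1 and Slc7a11 at 1.12 and 0.902. In BMDM Prdx1 led at 465, ahead of Txn1 at 292 and G6pdx at 113, each apart from the next. Srxn1 and Txnrd1 (55.6 and 53.7) overlapped, as did Gsr and Gclm (32.6 and 32.0), and Gclc (25.9), Nqo1 (12.2) and Slc7a11 (0.689) followed, each apart.

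The spread between libraries was compared by gene. Among BMDM the coefficient of variation of CPM was 1.69% to 4.35% for 9 of the genes and 20.6% for Slc7a11. In lining it ran from 2.71% for Prdx1, less than the 3.43% of Prdx1 in BMDM, to 27.6% for Gclc, leaving out Slc7a11 and Nqo1, which had libraries at 0. In interstitial it ran from 7.67% for G6pdx to 44.5% for Txn1 among the same 8 genes. BMDM libraries were also the deepest, and the part of depth in the spread was not tested. Over the 6 sorted libraries the 45 pairs of these genes had Pearson correlations of log2(CPM + 1) from -0.864 to 0.854, with a median of 0.194.

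The genes most like a member were taken as those with the highest Pearson correlation of log2(CPM + 1) among all genes tested, a description over few libraries that share depth and group. Over all 9 libraries, G6pdx was most like Lig1, Cdk4 and Pcna (r = 0.997, 0.996 and 0.996), which act in DNA replication or the cell cycle. Gclm was most like Bdh1, Hells and Tox2 (0.997, 0.995 and 0.992), and Prdx1 was most like Ostc, Shmt2 and Aars (0.996, 0.995 and 0.995). Slc7a11, which followed another pattern, was most like Dcstamp, Hexim2 and Slc1a5 (0.982, 0.978 and 0.960). With only the 6 sorted libraries other genes led in each case, for instance Med16 for G6pdx (0.992) and Rfx2 for Slc7a11 (0.990).

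The regulators of Nrf2 were measured as a list of 10 genes, none of which passed the test between lining and interstitial. Nfe2l2, Nrf2 itself, had 215, 198 and 192 CPM in lining, 182, 189 and 204 CPM in interstitial, and 302, 303 and 324 CPM in BMDM. It was lower than BMDM in lining (-0.62 ± 0.12, adjusted p = 0.00116) and interstitial (-0.69 ± 0.12, adjusted p = 4.97e-04). Keap1, its inhibitor, was lower too, at 60.0 ± 4.65 (SD) CPM in lining and 54.2 ± 8.18 CPM in interstitial against 105 ± 3.61 CPM in BMDM (-0.81 ± 0.16 and -0.96 ± 0.16, adjusted p = 0.00126 and 3.61e-04).

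Bach1, the repressor that competes for antioxidant response elements, was higher in the sorted cells. It had 179, 175 and 150 CPM in lining and 189, 195 and 154 CPM in interstitial, against 93.4, 93.2 and 94.4 CPM in BMDM (0.84 ± 0.13 and 0.94 ± 0.13, adjusted p = 3.05e-04 and 1.25e-04). Every sorted library lay above every BMDM library. Maff, a small Maf partner, was also higher (3.32 ± 0.98 and 3.57 ± 0.98, adjusted p = 0.0201 and 0.0138), but ranged from 0.970 to 28.9 CPM in lining and from 3.99 to 41.8 CPM in interstitial. The Maff calls were lost without any 1 of the 3 BMDM libraries, and in lining also without lining C. Rbx1, the ring subunit of that ligase, was lower in lining than in BMDM (-0.66 ± 0.22, adjusted p = 0.0276), a call lost without any 1 of the 3 BMDM libraries, lining A or lining B. Its interstitial difference of -0.47 ± 0.22 did not pass with all libraries and passed without interstitial D. The remaining 5, Nfe2l1, Cul3, Sqstm1, Mafg and Mafk, passed in neither comparison with all 9 libraries. Without interstitial D, Sqstm1 was called higher in interstitial and Mafg lower in lining, and Mafg and Mafk were also called in some fits without another library. The list counts were 2 higher and 3 lower in lining, and 2 higher and 2 lower in interstitial. Without interstitial D they were 2 and 4, and 3 and 3.

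Over all genes of the related lists and of the digestion list below, 69 of the 79 calls in lining and 60 of the 74 in interstitial against BMDM held with each library left out in turn, as did 5 of the 11 between lining and interstitial. Without interstitial D, 9 calls were gained and 0 lost in lining against BMDM, and 10 were gained and 5 lost in interstitial against BMDM. Between lining and interstitial 3 were gained and 0 lost, with Mgst1 higher in lining and Jund and Rpia lower, genes named after their values were seen. The counts of each list, above and below, stand beside the shares of all genes tested. Against BMDM these were 23.1% higher and 20.5% lower in lining, and 23.4% and 21.3% in interstitial. For lining against interstitial they were 3.74% higher and 2.05% lower.

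Other genes counted as Nrf2 targets went mostly the same way as the 10. Of 14 tested (16 listed), 8 were lower and 1 higher in lining than in BMDM, and the counts in interstitial were also 8 and 1, with list medians of -0.75 and -0.54. In each comparison 5 passed in neither direction. Leaving out a library gave 8 to 9 lower in lining and 6 to 8 in interstitial. Me1, the malic enzyme that makes NADPH, was at 1.46 ± 0.458 CPM in lining and 0.688 ± 0.596 CPM in interstitial against 26.2 ± 0.801 CPM in BMDM (-4.12 ± 0.50 and -4.95 ± 0.52). Fth1, the ferritin heavy chain (-1.83 ± 0.15 and -2.19 ± 0.15), and Esd, an esterase (-1.88 ± 0.24 and -1.81 ± 0.24), were lower as well. Ephx1, a microsomal epoxide hydrolase, was the 1 called higher, at 127 ± 18.3 and 213 ± 26.5 CPM against 10.9 ± 0.830 CPM (3.54 ± 0.17 and 4.29 ± 0.17, adjusted p = 1.71e-08 and 5.27e-09).

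Between lining and interstitial, 2 of these 14 passed, both lower in lining. Hmox1, haem oxygenase, had 330, 387 and 407 CPM in lining and 720, 611 and 646 CPM in interstitial (-0.81 ± 0.13, adjusted p = 0.00298), with no overlap, and it stayed called with each library left out in turn. Against BMDM, at 603, 642 and 583 CPM, Hmox1 was called lower in lining and was not called in interstitial. Both outcomes held with each library left out in turn. Ephx1 had 145, 127 and 109 CPM in lining and 183, 233 and 223 CPM in interstitial (-0.75 ± 0.15, adjusted p = 0.0133), and was not called without interstitial E. The dendritic and B cell marker sums given above differed in the same direction, and their part in these 2 genes was not tested.

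Other NADPH-supplying genes had 8 of 12 lower and 1 higher in lining, and 7 lower and 1 higher in interstitial, against BMDM, and none passed between the sorted groups. The list medians were -1.32 and -1.43. Leaving out a library gave 7 to 8 lower in lining and 6 to 7 in interstitial. Mthfd2, a mitochondrial folate enzyme, was at 12.6 ± 8.74 CPM in lining and 24.5 ± 20.3 CPM in interstitial against 195 ± 4.86 CPM in BMDM (-3.93 ± 0.66 and -2.94 ± 0.61). In lining, Nnt, the mitochondrial transhydrogenase (-1.79 ± 0.25), and Pgd, which follows G6pdx in the pentose phosphate pathway (-1.55 ± 0.18), were lower. In interstitial, Mthfd1 (-1.94 ± 0.17) and Taldo1, transaldolase (-1.93 ± 0.19), were among the lower genes. Idh2, mitochondrial isocitrate dehydrogenase, was the higher one (0.68 ± 0.19 and 0.92 ± 0.19), a call lost in lining without lining A or BMDM I.

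The rest of glutathione synthesis, breakdown and transport showed no common direction. Of 14 tested (17 listed), 3 were higher (1 to 4 with a library left out) and 4 lower in lining, and 4 higher and 3 lower in interstitial, against BMDM. Of all genes tested, 23.1% were higher and 20.5% lower in lining, and 23.4% and 21.3% in interstitial. Chac1, which degrades glutathione, had 0 counts in lining, at least 36.1-fold lower than the 7.15 ± 0.522 CPM of BMDM, and 2 counts in interstitial. Anpep, an aminopeptidase, was 129 ± 5.94 and 135 ± 59.4 CPM against 1039 ± 29.0 CPM (-3.01 ± 0.25 and -2.93 ± 0.25). Ggt1, Ggt5 and Dpep3, which cleave glutathione outside the cell or its products, were higher in both sorted groups at low levels, for instance Ggt5 at 2.82 ± 2.47 and 15.4 ± 11.4 CPM against 0.227 ± 0.150 CPM. Ggt1 rested on 28 counts in lining and 26 in interstitial, against 6 in BMDM. The Ggt1 call in interstitial was lost without BMDM G or H, the Ggt5 call in lining without BMDM H, BMDM I or lining B, and the Dpep3 call in lining without any 1 BMDM library or lining B. Fibroblast marker sums were also higher in the sorted libraries, and their part in Ggt1, Ggt5 and Dpep3 was not tested.

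Of the 21 glutathione peroxidases, transferases and glutaredoxins, 4 were higher and 5 lower in each sorted group than in BMDM, beside backgrounds over all genes of 23.1% (higher) and 20.5% (lower) for lining, and 23.4% and 21.3% for interstitial. With a library left out, 5 to 9 were lower in lining and 4 to 7 in interstitial. Gpx3, the secreted peroxidase (104 ± 51.6 and 58.9 ± 14.6 CPM against 17.4 ± 1.64 CPM), and Mgst1, a microsomal transferase (70.8 ± 31.2 and 33.4 ± 17.9 against 11.9 ± 0.933 CPM), were higher in both. Gpx7 was higher too (4.95 ± 1.24 and 4.08 ± 1.20), but lost the interstitial call without interstitial E or any 1 BMDM library. The fibroblast markers given above also moved in this direction, and their part in these 3 genes was not tested. Glrx, glutaredoxin, was lower (-1.57 ± 0.40 and -1.61 ± 0.39).

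Between lining and interstitial, 2 transferases were lower in lining. Gstm1 was at 42.1 ± 3.46 against 88.3 ± 8.93 CPM (-1.07 ± 0.15, adjusted p = 0.00126). Gstp1 had 6 counts in lining and 160 in interstitial (0.321 ± 0.278 against 10.5 ± 4.74 CPM; -4.77 ± 0.75, adjusted p = 0.00249). Both calls held with each library left out in turn. The dendritic and B cell marker sums were lower in every lining library than in every interstitial library, with 1 gene of each list called lower, and their part in both transferases was not tested. Gstm and Gstp genes have close relatives, among which reads may be divided unevenly.

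Other thioredoxin and peroxiredoxin genes numbered 15, of which lining had 2 higher and 4 lower than BMDM, and interstitial 2 higher and 6 lower. With a library left out, 3 to 5 were lower in lining and 3 to 7 in interstitial, so these counts depend on single libraries. Prdx4, the peroxiredoxin of the secretory pathway, was lower in both (-1.09 ± 0.17 and -0.96 ± 0.17). Txnip, which binds and inhibits thioredoxin, was higher, at 970 ± 59.5 CPM in lining and 1791 ± 711 CPM in interstitial against 195 ± 13.9 CPM in BMDM (2.31 ± 0.23 and 3.20 ± 0.24). Txnip thus went against Txn1, Txnrd1 and Prdx1 in both comparisons. Txnrd3 was higher as well, at 15.3 ± 2.02 and 14.6 ± 0.970 CPM against 5.01 ± 0.604 CPM.

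Between lining and interstitial, Msrb2 and Msrb1, which repair oxidised methionine, and Prdx5 were higher in lining (1.57 ± 0.34, 0.98 ± 0.21 and 0.89 ± 0.18, adjusted p = 0.0182, 0.0164 and 0.0134). None of the 3 was called without lining A or without interstitial E. Txnip was lower in lining (-0.88 ± 0.22, adjusted p = 0.0375), a call that held in only 2 of the 9 fits with a library left out, those without interstitial D or F.

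Enzymes that make or remove superoxide were looked at for comparison. Of 7 tested genes for superoxide and nitric oxide production, 5 were higher and 1 lower in lining, and 3 higher and 1 lower in interstitial, against BMDM. Cybb, the catalytic subunit of the phagocyte NADPH oxidase, was at 775 ± 47.6 and 804 ± 235 CPM against 466 ± 37.8 CPM (0.73 ± 0.19 and 0.79 ± 0.19). Rac2, the small GTPase of that oxidase, was lower (-1.40 ± 0.16 and -1.14 ± 0.16). Of the 4 superoxide dismutases and catalase, 2 were higher and 2 lower in lining than in BMDM, and 1 higher and 2 lower in interstitial. Cat, catalase, was at 96.1 ± 17.2 and 117 ± 14.1 CPM against 400 ± 5.74 CPM (-2.05 ± 0.16 and -1.78 ± 0.15), and Sod1 was also lower (-0.85 ± 0.16 and -0.47 ± 0.16), a call lost in interstitial without interstitial E or any 1 BMDM library. Sod2, the mitochondrial enzyme, was higher in lining (0.39 ± 0.14, adjusted p = 0.0375), a call lost without any 1 BMDM library, lining B or lining C, and its interstitial difference was 0.05 ± 0.14 (adjusted p = 0.784). Sod3, the secreted enzyme, had 31 counts in lining and 50 in interstitial against 2 in BMDM, pooled ratios of 66.2 (95% counting interval 16.8 to 571) and 90.4 (23.8 to 767). The fibroblast marker sums given above were also higher in the sorted libraries, and their part in Sod3 was not tested.

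The cytosolic oxidase subunits Ncf4 and Ncf1 were also higher in lining than in interstitial (174 ± 12.2 against 103 ± 6.90 CPM and 967 ± 48.3 against 577 ± 57.5 CPM; 0.75 ± 0.12 and 0.74 ± 0.13, adjusted p = 0.00390 and 0.00417), with each library left out in turn as well. Xdh, xanthine dehydrogenase, was higher by 0.72 ± 0.16 (adjusted p = 0.0207), and lost the call without lining B, interstitial E or BMDM I. The pan-macrophage marker sums given above differed in the same direction, and their part in Ncf4, Ncf1 and Xdh was not tested.

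Slc7a11 is also a target of Atf4, the transcription factor of the amino acid stress response, which binds the amino acid response element shown above. Of 11 Atf4 genes tested, 9 were lower and 1 higher in lining than in BMDM, and 7 lower and 1 higher in interstitial. The list medians were -1.97 and -1.50, and none passed between the sorted groups. Leaving out a library gave 7 to 9 lower in lining and 6 to 9 in interstitial. Phgdh, the first enzyme of serine synthesis, was at 1.03 ± 1.71 and 0.997 ± 1.36 CPM against 73.7 ± 2.59 CPM. Asns, asparagine synthetase, was at 4.18 ± 4.55 and 8.15 ± 3.37 CPM against 113 ± 3.23 CPM (-4.89 ± 0.56 and -3.88 ± 0.50). Atf3 was the higher one, and it is also an immediate early gene. Chac1, counted above, belongs to this list too.

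**Figure D4:**
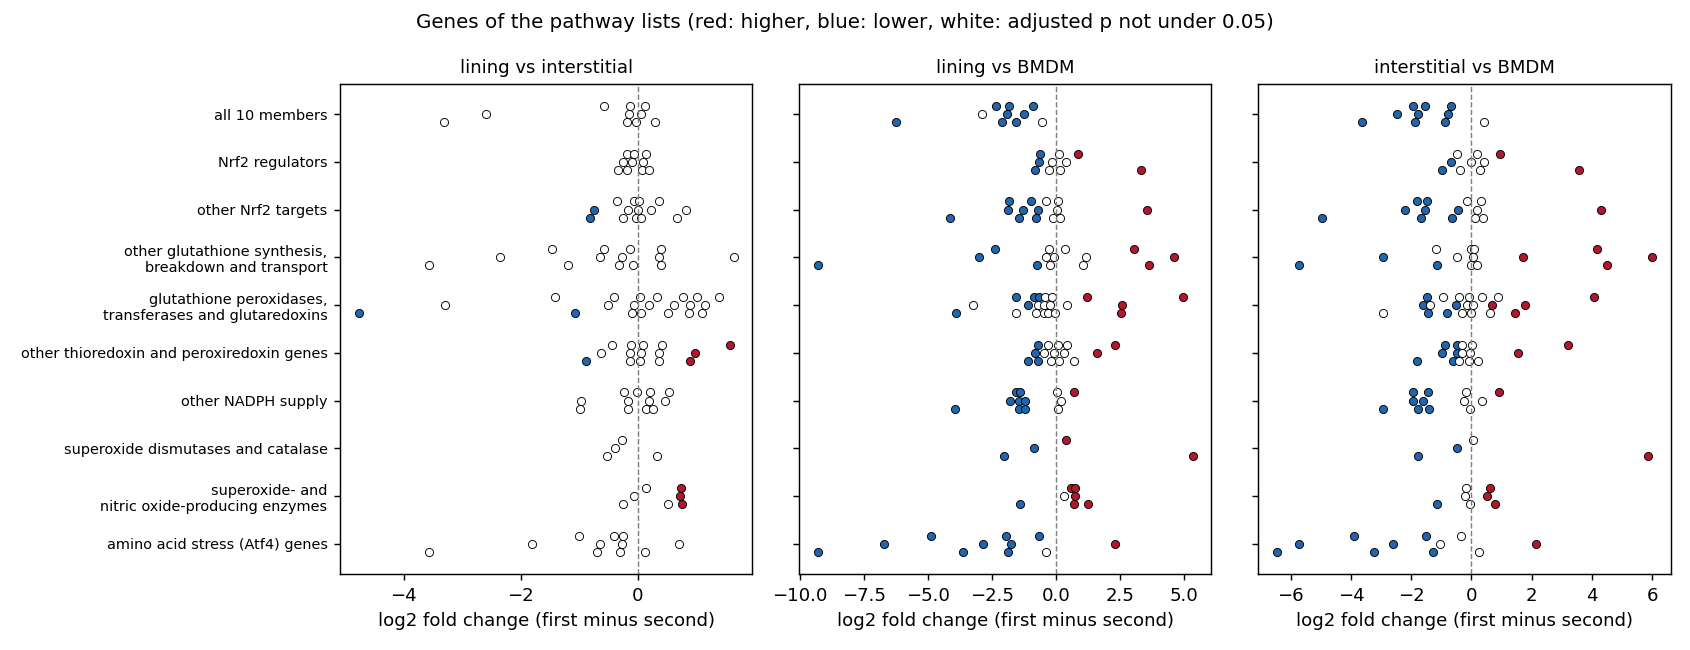
Fitted log2 fold changes of every tested gene of the 10 antioxidant and glutathione genes and of 9 related lists in the 3 comparisons (points, spread vertically so that they can be seen; red higher, blue lower and white not passing at an adjusted p under 0.05; the horizontal scales differ). Chac1, with 0 counts in lining, is drawn at its fitted value, which depends on the prior count of the model. Against BMDM the 10 genes, the Atf4 genes and the NADPH genes lie mostly left of 0, and between lining and interstitial most points are white.

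Genes induced when tissue is digested and sorted also separated the sorted cells from BMDM. Of 18 immediate early and heat shock genes, 15 were higher and 1 lower in each sorted group than in BMDM, with list medians of 4.74 and 4.80. Their summed level was 9308 to 14553 CPM in lining, 8059 to 14787 CPM in interstitial and 2524 to 2786 CPM in BMDM. Egr1, for example, was at 748 ± 104 and 699 ± 226 CPM against 0.225 ± 0.123 CPM. None of the 18 passed between lining and interstitial. The part of this response in the lower levels of the 10 antioxidant and glutathione genes was not tested.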

How the data were processed

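The 10 genes and the related lists were chosen with earlier results of these data known. The authors deposited 1 table of raw counts per gene. Per the file headers, featureCounts 1.6.1 counted reverse-stranded reads over exons of Ensembl release 91 (GRCm38), summed by gene, and the same table gives each gene's exon length. Per the labels' protocols, 500 ng of RNA went into stranded mRNA libraries read as single 101 bp reads. Per the submitters' processing notes, STAR 2.5.4a, cutadapt 1.15, bcl2fastq 2.17.1.14, DESeq2 1.20.0 and R 3.5.0 are also named, with no role given.

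Identifiers were matched to symbols for 53274 of 53465 genes, and the other 191 were tested under their identifier. The analysis used edgeR 4.0.16 under R 4.3.3: filterByExpr (minimum count 10, minimum total 15), scaling by the trimmed mean of M values (TMM), a robust quasi-likelihood fit with a mean per group over all 9 libraries (6 residual degrees of freedom), 2-sided tests, and p-values adjusted by Benjamini-Hochberg over the 12610 genes that passed. The threshold for a call was an adjusted p of 0.05. CPM values are TMM-scaled, the SE of a log2 fold change is that change divided by the root of its F statistic, and a ± after a CPM is the SD over 3 libraries. Counting intervals are exact binomial (Clopper-Pearson, 95%). The fit was tested on simulated counts. All 10 genes were named. From each related list the up to 3 called genes with the largest log2 change in each direction were eligible for naming, besides all Nrf2 regulators. For the most similar genes the top 3 per gene were eligible. Alternatives were DESeq2 1.42.0, limma-voom (limma 3.58.1), 2 other scalings, 2 other filters, only the 2 groups compared, leaving out each library and, between lining and interstitial, a term for the 2 deepest sorted libraries. Leaving out each library for the related lists was added after the data were seen.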

Additional observations from a re-analysis of the deposited data

Results flagged for a closer look

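Among the lists related to the 10 genes, 11 genes had a difference from BMDM that itself differed between lining and interstitial. Since both use the same BMDM libraries, that difference equals the fitted log2 difference of lining minus interstitial, tested with edgeR. It was -0.81 for Hmox1, -0.75 for Ephx1, -1.07 for Gstm1, -4.77 for Gstp1 and -0.88 for Txnip, all lower in lining. It was 0.89 for Prdx5, 0.98 for Msrb1, 1.57 for Msrb2, 0.74 for Ncf1, 0.75 for Ncf4 and 0.72 for Xdh, all higher in lining. None of the 10 antioxidant and glutathione genes was among them. With each library left out in turn, Hmox1, Gstm1, Gstp1, Ncf1 and Ncf4 stayed called, and the other 6 lost the call at least once.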

How the results depend on the processing

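Against BMDM, 6 of the 10 genes (Gclm, Txnrd1, Prdx1, Srxn1, G6pdx and Nqo1) were lower in both sorted groups under each of the 16 alternatives run per comparison. The number lower was 8 to 10 in lining and 7 to 9 in interstitial, and the unstable calls were those of Slc7a11, Gclc, Gsr and Txn1. Between lining and interstitial the number was 0 under 16 of 17 alternatives and 2 without interstitial D. Genes called between lining and interstitial numbered 1298 with DESeq2, 366 with only the 2 groups compared, and 396 to 888 with a library left out, against 730. With a term for the 2 deepest sorted libraries it was 682. With only the 2 groups compared, Nqo1 did not pass the filter between lining and interstitial and could not be fitted.

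Some signs changed where no call was made, and the cause was not tested. With limma-voom, Gclm between lining and interstitial became -0.031 and Slc7a11 between interstitial and BMDM became -0.83. With a library left out, the difference between lining and interstitial ranged from -0.0019 to 0.32 for Gclm, -0.32 to 0.27 for Txn1, -0.24 to 0.31 for Txnrd1 and -0.10 to 0.042 for G6pdx. That of Slc7a11 between interstitial and BMDM ranged from -1.34 to 0.90. Without a filter on low counts the median of all genes moved to -0.17 and -0.19 against BMDM. The part of this shift in the results was not tested.

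Depth limits Slc7a11 and Nqo1 most: lining held 18 and 4 counts of them in all. No paired analysis was possible because the sample letters A to I are not shared between groups.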
